A study of Homo sapiens with 5 samples.

Results

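The 10 genes described here, of transforming growth factor beta (TGF-beta) and bone morphogenetic protein (BMP) signalling, were measured in SW620, a human colon carcinoma cell line. They were taken by symbol from the count table: BMP4, BMP7, TGFBR2, SMAD3, SMAD6, SMAD7, ID1, ID2, ID3 and TGFBI. All 10 were among the 25343 gene rows, and all 10 passed the filter on low counts that left 13604 genes for testing. Stranded mRNA sequencing gave 5 libraries of cells with the genotype tet-MUC1shRNA, a tetracycline-inducible short hairpin RNA against the mucin gene MUC1, which both groups carry. The labels name 2 libraries pos (replicates 1 and 3) and 3 libraries neg (replicates 1, 2 and 3). They state treatment with vehicle or doxycycline without saying which name is which, so the names pos and neg are kept. Nothing in them says whether the cells are 1 clone, or that the libraries of a group come from separate cultures beyond culture in triplicates, so p-values measure the spread between these libraries.

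Library totals were 12190025 and 13470767 counts in pos and 10888704 to 14137678 in neg. MUC1 had 27 and 13 reads in pos, against 176, 252 and 218 in neg (log2 fold change -3.07, SE 0.34). The pos libraries differed from each other more than neg libraries did, with a Pearson r of log2 levels across genes of 0.912, against 0.983 to 0.993 for neg pairs. Transcript length went with that difference. Tested genes were put into 5 equal groups by transcript length. In pos replicate 3 the group of shortest transcripts had a median log2 ratio of 1.19 over neg, and the group of longest ones -1.25. In pos replicate 1 these medians were 0.37 and -0.26. Of the 12 epithelial markers, none was at 0 in all libraries, and their summed level was 8060 to 16740 CPM (counts scaled to the TMM-normalised library size) in pos and 6194 to 8080 CPM in neg, carried mostly by KRT8, KRT18 and KRT19. Single markers went both ways. CDX2 rose, with 61.4 and 124.4 CPM in pos, against 21.5, 21.7 and 18 CPM in neg (log2 fold change 2.18, adjusted p = 0.0337), and CDH1 fell, with 219 and 108 CPM in pos, against 523.5, 513 and 531 CPM in neg (-1.68, adjusted p = 0.0434). CDX1 was at 0 reads in every library but 1, and KRT20 had 0 and 4 reads in pos, against 16, 31 and 23 in neg.

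In this pathway, secreted ligands of the TGF-beta and BMP families bind pairs of receptor kinases, which phosphorylate receptor SMAD proteins. These join SMAD4, enter the nucleus and switch target genes on or off. SMAD6 and SMAD7 are inhibitory SMADs that the pathway itself induces, and the ID genes are classical BMP targets whose proteins block basic helix-loop-helix transcription factors. In the intestine BMP signalling is known for restraining the stem cell compartment and favouring differentiation, and TGF-beta for growth arrest of epithelial cells, an arm that colorectal cancers often lose.

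The ligand gene BMP4, the TGF-beta-induced matrix gene TGFBI and the BMP target ID2 rose in pos past the threshold given next. None of the 10 genes fell past it, and rose and fell are used in this sense throughout. TGFBR2 and SMAD3 had lower means in pos without passing, at log2 fold changes of -0.51 and -0.21. In edgeR's quasi-likelihood test, with Benjamini-Hochberg adjustment over all tested genes, 3 of the 10 had an adjusted p under 0.05, against 9.20% of all tested genes in either direction and 5.06% higher in pos. The median log2 fold change of the 10 genes was 0.92, and that of all tested genes -0.05. Levels in pos and neg did not overlap for 8 of the 10, 7 of them higher and 1 lower in pos. Of all tested genes 56.0% did not overlap, 26.7% being higher and 29.3% lower in pos. The 10 genes were chosen with earlier results of these data known, so these shares describe them and are no test. Leaving out any 1 neg library left 0 of the 10 genes, and 0 of all tested genes, past the threshold in edgeR. Each time 4 of the 10 were still at an unadjusted p under 0.05. So were 3033 of 13443, 2510 of 13420 and 2607 of 13474 tested genes without neg replicates 1, 2 and 3. When counts were scaled by library size alone, which put the median of all genes at -0.41, BMP4 was the 1 gene of the 10 to pass. In bulk RNA of this kind, fewer cells of a type and less RNA per cell cannot be told apart.

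**Figure D1:**
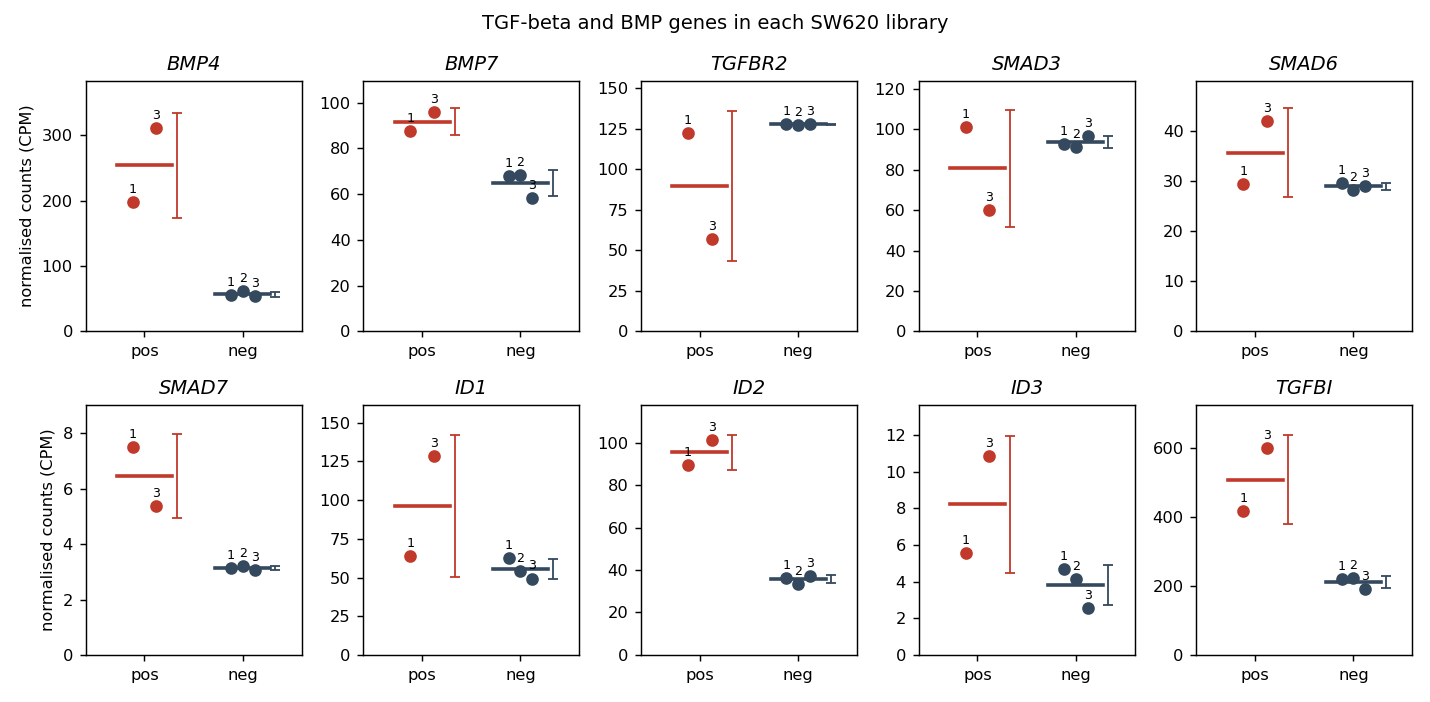
Normalised counts (CPM, linear axes from 0) of the 10 genes in each library. Points are libraries numbered by replicate, horizontal lines are group means and the bars beside them the SD (n = 2 pos, n = 3 neg). BMP4 stands at 197 and 310.5 CPM in pos and 53.5 to 61.4 CPM in neg, while ID1 in pos replicate 1 stands at 63.8 CPM beside 62.7 CPM in neg replicate 1.

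BMP4 encodes a secreted BMP ligand, and it had the largest fold change of the 10 genes. It had 2436 and 2945 reads in pos replicates 1 and 3, against 784, 976 and 666 in neg replicates 1, 2 and 3. These were 197 and 310.5 CPM in pos, against 54.8, 61.4 and 53.5 CPM in neg, so both pos libraries lay far above every neg library. The means were 254 ± 80.2 CPM in pos and 56.6 ± 4.20 CPM in neg (SD, n = 2 pos and 3 neg, as for all group values below), a 4.48-fold rise (log2 fold change 2.16, SE 0.25, adjusted p = 0.0270). BMP4 kept a log2 fold change of 1.77 without pos replicate 3 and 2.502 without pos replicate 1, and of 1.76 (adjusted p = 0.00547) once each library's trend on transcript length was removed. Its adjusted p was 0.178, 0.217 and 0.212 without neg replicates 1, 2 and 3. ID2 and TGFBI had the same values, in fits that called no gene at all, so these values do not set the genes apart. The gene occupies bases 53949736 to 53958761 of chromosome 14, minus strand, in GENCODE 44 on GRCh38, the source of all gene positions here. An unnamed gene overlaps it on the opposite strand, and reads of the pair cannot be told apart, since the strand setting of the counting is not given.

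BMP7, the other BMP ligand of the set, differed less. It had 1081 and 909 reads in pos, against 972, 1084 and 726 in neg, or 87.5 and 95.8 CPM in pos, against 68.0, 68.2 and 58.4 CPM in neg. The groups did not overlap, and the log2 fold change was 0.50 (SE 0.19, adjusted p = 0.121), not past the threshold on all 5 libraries. It passed with the length trend removed (0.79, adjusted p = 0.0464). BMP7 lies on chromosome 20 (57168753 to 57266641, minus strand) and overlaps the antisense gene BMP7-AS1.

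The type II TGF-beta receptor gene TGFBR2, whose kinase starts the TGF-beta signal at the membrane, did not pass the threshold. It had 1512 and 541 reads in pos, against 1826, 2025 and 1595 in neg. On the CPM scale these were 122 and 57.0 in pos, against 127.7, 127.3 and 128.2 in neg, so pos replicate 1 lay just under the tight neg range and pos replicate 3 well below it. The log2 fold change was -0.51 (SE 0.34, adjusted p = 0.313). The difference came to -0.09 without pos replicate 3 and -1.12 without pos replicate 1. The gene spans 30606601 to 30694142 on chromosome 3 (plus strand), with a transcript of 4530 nt in the second longest of the 5 length groups.

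SMAD3, the receptor SMAD of the TGF-beta arm, overlapped between groups. It had 101 and 60.2 CPM in pos replicates 1 and 3, against 92.8, 91.4 and 96.9 CPM in neg (log2 fold change -0.21, SE 0.26, adjusted p = 0.578). Pos replicate 1 was thus above and pos replicate 3 below all neg libraries. With the length trend removed the sign turned (0.37, adjusted p = 0.112), as it did without pos replicate 3 (0.09). Its transcript of 6464 nt is the longest of the 10, and the gene lies on chromosome 15 (67063763 to 67195173, plus strand) with 2 unnamed genes on the opposite strand.

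SMAD6, an inhibitory SMAD directed mainly at the BMP arm, lies near SMAD3 on chromosome 15 (66702236 to 66782849, plus strand) and overlaps an unnamed gene of the same strand. It had 29.3 and 41.9 CPM in pos, against 29.5, 28.2 and 28.9 CPM in neg, so pos replicate 1 lay within the neg range and pos replicate 3 above it. The log2 fold change was 0.30 (SE 0.22, adjusted p = 0.364), and -0.12 when scaled by library size alone.

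SMAD7, the inhibitory SMAD that blocks the TGF-beta receptor, had the lowest level per kilobase of the 10, with 93 and 51 reads in pos, against 45, 51 and 38 in neg. These were 7.53 and 5.38 CPM in pos, against 3.15, 3.21 and 3.05 CPM in neg, with both pos libraries above the neg range. The exact Poisson 95% interval, which covers counting error only, was 4.003 to 7.07 CPM in pos replicate 3, and its lower end lay below the upper end of every neg interval (4.19 to 4.22 CPM). The log2 fold change was 1.04 (SE 0.27, adjusted p = 0.0628), not past the threshold in edgeR, and 1.07 (adjusted p = 0.0453) in DESeq2. It passed in edgeR with the length trend removed (1.15, adjusted p = 0.0334). SMAD7 lies on chromosome 18 (48919853 to 48950965, minus strand).

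The ID genes encode helix-loop-helix proteins without a DNA-binding region, which capture E proteins and so keep differentiation factors from DNA. All 3 had higher levels in both pos libraries than in any neg library, as 26.7% of all tested genes did, and ID2 alone of them passed the threshold. All 3 are in the group of shortest transcripts, whose median log2 ratios over neg were 0.37 and 1.19 in pos replicates 1 and 3. ID2 had 1109 and 961 reads in pos, against 516, 535 and 465 in neg. These were 89.7 and 101 CPM in pos, against 36.1, 33.6 and 37.4 CPM in neg, a gap several times the spread within either group. Its means were 95.5 ± 8.19 CPM in pos and 35.7 ± 1.90 CPM in neg, a 2.68-fold rise (log2 fold change 1.42, SE 0.18, adjusted p = 0.0316). The difference was 1.30 without pos replicate 3 and 1.55 without pos replicate 1. Without neg replicates 1, 2 and 3 the adjusted p was 0.178, 0.217 and 0.212, the same values as for BMP4. The call ended with the length trend removed (0.74, adjusted p = 0.0617) and when scaled by library size alone (1.02, adjusted p = 0.0555). ID2 lies on chromosome 2 (8678845 to 8684461, plus strand) and overlaps the antisense gene ID2-AS1.

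ID1 had a level in pos replicate 1 close to the highest neg library. It had 789 and 1222 reads in pos, against 896, 864 and 614 in neg, or 63.8 and 129 CPM in pos, against 62.7, 54.3 and 49.4 CPM in neg. The log2 fold change was 0.80 (SE 0.32, adjusted p = 0.143). Leaving out pos replicate 3 gave 0.18 and leaving out pos replicate 1 gave 1.26, and removing the length trend gave -0.19 (adjusted p = 0.375). ID3 had 69 and 103 reads in pos, against 67, 66 and 32 in neg, or 5.58 and 10.9 CPM in pos, against 4.69, 4.15 and 2.57 CPM in neg (log2 fold change 1.099, SE 0.40, adjusted p = 0.119). Once the length trend was taken out, ID3 stood at 0.12 (adjusted p = 0.785). The Poisson interval of ID3 in pos replicate 1 ran from 4.34 to 7.07 CPM and overlapped that of neg replicate 1, from 3.63 to 5.95 CPM, so only pos replicate 3 stood apart beyond counting error. ID1 lies on chromosome 20 (31605283 to 31606515, plus strand) and ID3 on chromosome 1 (23557926 to 23559501, minus strand). The fourth ID gene, ID4, had 0 and 2 reads in pos, against 0, 1 and 4 in neg, and was not tested.

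TGFBI encodes a secreted matrix protein named for its induction by TGF-beta, and it had the highest level per kilobase of the 10 genes. It had 5170 and 5698 reads in pos, against 3140, 3542 and 2386 in neg. The normalised levels were 418 and 601 CPM in pos, against 220, 223 and 192 CPM in neg, so the pos libraries lay clear of neg. The means of 510 ± 129 CPM in pos and 211 ± 17.0 CPM in neg gave a 2.41-fold rise (log2 fold change 1.27, SE 0.23, adjusted p = 0.0386). Its log2 fold change stayed above 0 in each smaller fit, at 0.96 when pos replicate 3 was left out and 1.55 when pos replicate 1 was. Removing the length trend gave 1.18 (adjusted p = 0.0142). The adjusted p was 0.178, 0.217 and 0.212 without neg replicates 1, 2 and 3, the same values as for BMP4. It was 0.0547 at a log2 fold change of 0.84 when scaled by library size alone. TGFBI lies on chromosome 5 (136028988 to 136063818, plus strand).

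**Figure D2:**
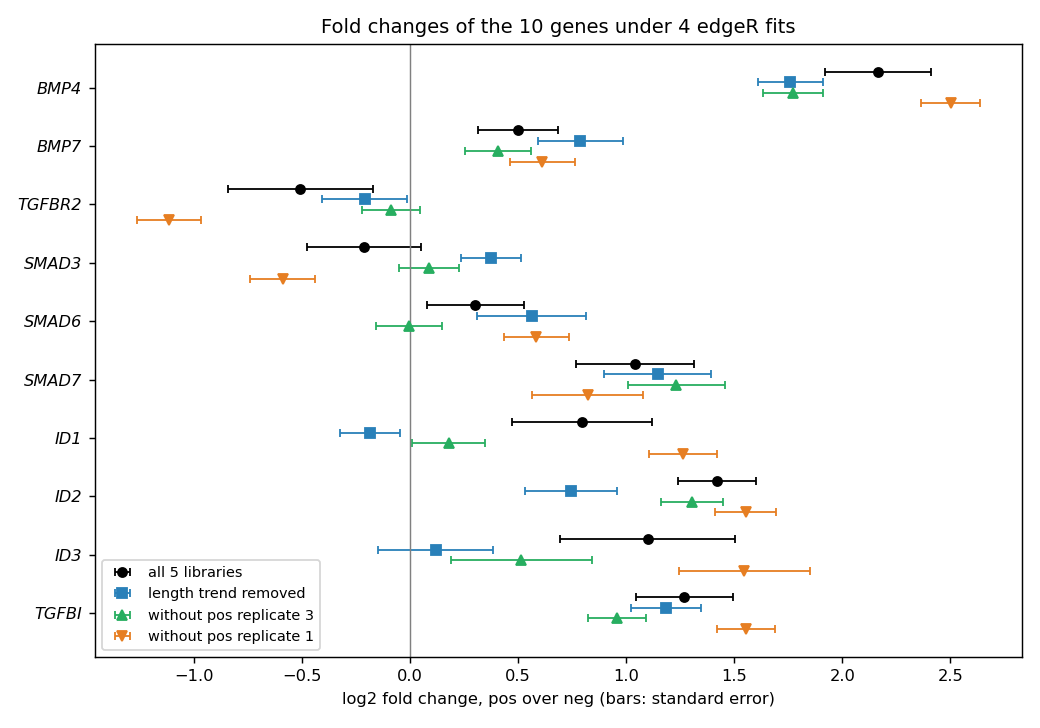
Log2 fold change of pos over neg for each of the 10 genes in 4 edgeR fits, with bars for the standard error. The fits use all 5 libraries, all 5 with the transcript length trend removed, or leave out 1 pos library. BMP4 lies between 1.76 and 2.502 and TGFBI between 0.96 and 1.55 in all 4, while ID1 runs from -0.19 to 1.26 and SMAD3 from -0.59 to 0.37.

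Set against genes of similar transcript length, 8 of the 10 genes lay above the median of their length group in both pos libraries, the exceptions being ID1 and TGFBR2. Of all tested genes with a known length, 34% lay above it in both. SMAD6 did so in pos replicate 1 by only 0.058 on the log2 scale. Because the 10 genes were chosen with earlier results known, the 34% is a description beside them and no test. BMP4 had a log2 ratio over the neg mean of 1.801 in pos replicate 1, where the median of its length group was 0.12. In pos replicate 3 the 2 values were 2.46 and 0.45. TGFBI was at 0.99 and 1.51 in pos replicates 1 and 3, in a group with medians of -0.04 and -0.14, and SMAD7, of the same group, at 1.22 and 0.75. BMP7 was at 0.44 and 0.57 in a group at -0.12 and -0.66, and SMAD3 at 0.11 and -0.64 in the longest group at -0.26 and -1.25. ID2 was at 1.33 and 1.502 and ID1 at 0.21 and 1.22, in the shortest group with medians of 0.37 and 1.19. ID1 thus lay below its group in pos replicate 1 and close to it in pos replicate 3. TGFBR2, at -0.06 and -1.16, lay near its group at -0.12 in pos replicate 1 and under its group at -0.66 in pos replicate 3. What part length has in any of these differences was not tested.

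**Figure D3:**
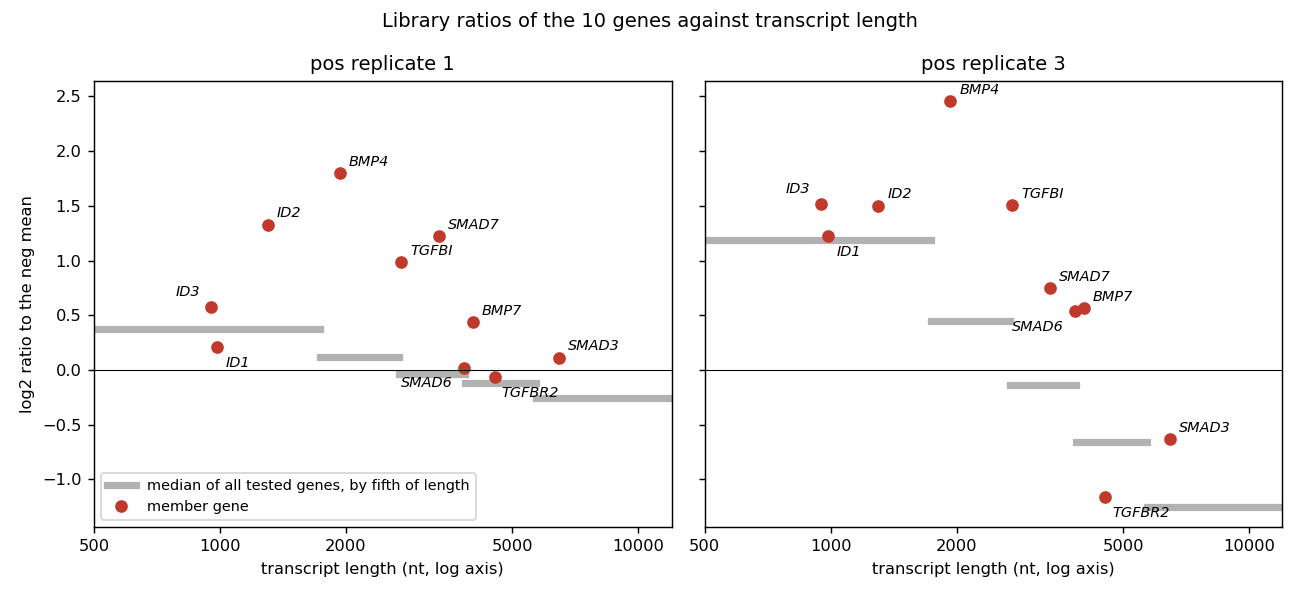
Log2 ratio of pos replicate 1 (left) and pos replicate 3 (right) to the neg mean, against transcript length on a log axis. Red points are the 10 genes and grey bars are the medians of all tested genes in 5 equal groups by length. The bars fall from 0.37 to -0.26 on the left and from 1.19 to -1.25 on the right, with BMP4 above them in both panels.

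Per kilobase of transcript, which allows levels of different genes to be compared, TGFBI had the highest mean in both groups, at 188 ± 47.6 CPM per kb in pos and 77.9 ± 6.27 in neg. BMP4 came next in pos, at 131 ± 41.5 CPM per kb, but below ID1 in neg, at 29.3 ± 2.17. ID1 was at 98.0 ± 46.8 CPM per kb in pos and 56.4 ± 6.84 in neg. ID2 was at 73.5 ± 6.30 CPM per kb in pos and 27.5 ± 1.46 in neg, and TGFBR2 at 19.8 ± 10.2 in pos and 28.2 ± 0.0994 in neg. In neg the ranges of BMP4 and TGFBR2 overlapped, as did those of TGFBR2 and ID2 and of BMP7 and SMAD3, so those neighbours have no clear order. In pos the ranges of all neighbours overlapped except ID2 with BMP7 and ID3 with SMAD7. ID1 was at 64.95 CPM per kb in pos replicate 1 and 131 in pos replicate 3, where ID2 was at 69.1 and 78.0, so their order turned between the pos libraries. The remaining genes descended from BMP7 (22.8 ± 1.47 CPM per kb in pos, 16.1 ± 1.39 in neg) through SMAD3, SMAD6 and ID3 to SMAD7 (1.93 ± 0.455 in pos, 0.939 ± 0.0229 in neg). The lengths are those of 1 canonical transcript per gene, which need not be the one these cells use.

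Profiles over the 5 libraries, centred on each gene's mean log2 CPM, were closest for ID2 and TGFBI (Euclidean distance 0.40), BMP7 and SMAD6 (0.41) and SMAD3 and TGFBR2 (0.46). Within the ID family, ID1 and ID3 were 0.55 apart and ID1 and ID2 1.01. BMP4 and TGFBR2 were the farthest pair, at 3.25. Outside the set, the 5 genes nearest to ID1 among 10868 with a mean of at least 5 CPM were BCAP31, CCDC127, NACA, LMAN2 and MSRA, at distances of 0.04 to 0.08 over the 5 libraries.

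Promoter sequence was available for 9 of the 10 genes in the RefSeq windows (GRCh38.p14). It is shown for the genes that rose, for the ID family and for the inhibitory SMAD gene SMAD6. The windows of SMAD7, the other inhibitory SMAD gene, are described without their sequence. SMAD proteins are known to bind GTCT and its complement AGAC, and SMAD complexes also GC-rich GGCGCC. Searching both strands of the 250 bases before each start site, 77.5% of 35116 windows held GTCT or AGAC, 16.4% held GGCGCC and 0.182% the palindrome GTCTAGAC, in which the 2 short motifs meet. Capitals mark GTCT, AGAC and GGCGCC. The BMP4 window (the first of 3 listed, chr14:53955051-53955300, minus strand) held GTCT at 2 places and GGCGCC at 1, while the TGFBI window (chr5:136028738-136028987, plus strand) held AGAC and GGCGCC at 1 place each. Of the BMP4 windows not shown, the second held none of these motifs. The third held GTCT at 2 places and no GGCGCC. Which BMP4 start site these cells use was not tested.
BMP4: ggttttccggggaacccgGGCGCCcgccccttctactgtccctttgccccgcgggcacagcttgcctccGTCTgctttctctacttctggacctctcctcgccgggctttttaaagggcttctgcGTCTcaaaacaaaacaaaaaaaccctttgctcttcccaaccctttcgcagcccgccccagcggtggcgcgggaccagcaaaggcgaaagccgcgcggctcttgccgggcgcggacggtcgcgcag
TGFBI: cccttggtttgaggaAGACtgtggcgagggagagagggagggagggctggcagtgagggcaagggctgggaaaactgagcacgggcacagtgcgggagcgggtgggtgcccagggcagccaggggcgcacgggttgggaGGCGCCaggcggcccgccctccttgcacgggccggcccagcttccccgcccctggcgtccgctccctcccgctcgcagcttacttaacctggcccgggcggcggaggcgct
The SMAD6 window (chr15:66701986-66702235, plus strand) held the palindrome 12 bases before the start site, although SMAD6 did not pass the threshold. None of the 3 SMAD7 windows held the palindrome or GGCGCC. They held GTCT or AGAC at 4, 5 and 1 places.
SMAD6: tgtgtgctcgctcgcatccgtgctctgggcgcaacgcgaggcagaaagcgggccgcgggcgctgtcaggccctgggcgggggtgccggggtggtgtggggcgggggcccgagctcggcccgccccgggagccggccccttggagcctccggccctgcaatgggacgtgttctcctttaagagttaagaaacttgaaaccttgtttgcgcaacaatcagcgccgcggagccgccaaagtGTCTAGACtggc
Each of the ID1, ID2 and ID3 windows held a GTCT followed by an AGAC, with 22, 4 and 8 bases between them, and the 30 bases around each pair are shown (ID1 chr20:31605127-31605156, plus strand, ID2 chr2:8681944-8681973, plus strand, and ID3 chr1:23559637-23559666, minus strand).
ID1: GTCTttccacactgcgagcaggcactAGAC
ID2: cgcccgctcGTCTtgatAGACgtgccacct
ID3: ctccgcgGTCTtcggcgtcAGACcagccgg
Of the 250 bases of the ID2 window, 202 lie in GENCODE exons of ID2 itself, against 6 in the ID1 window and 0 in the ID3 window. Most of the ID2 window is thus not purely upstream sequence. The limit of 22 bases was taken from ID1 itself, so these 3 genes meet it by choice. Of all windows, 4.76% held a GTCT with an AGAC within that distance after it, the SMAD6 window included.

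A further 132 genes of the pathway were listed by role from general knowledge, with earlier results of these data known. Of these, 92 were tested, of which 2 rose and 8 fell. That is 10.9% of them, near the 9.20% of all tested genes, and their median log2 fold change was -0.48, against -0.05 for all. The 40 that were not tested had at most 13 reads in any library.

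Of the 9 tested TGF-beta and activin ligand genes, INHBE, an inhibin beta subunit gene known from liver, fell, with 39.97 and 42.9 CPM in pos, against 110, 94.7 and 86.6 CPM in neg (log2 fold change -1.23, SE 0.20, adjusted p = 0.0373). TGFB1, the main TGF-beta ligand gene, had 155 and 270 CPM in pos, against 223, 227 and 208 CPM in neg, so 1 pos library lay below and 1 above every neg library. None of 5 tested further BMP and GDF ligand genes passed, and BMP2 had 0 reads in both pos libraries, a count that allows up to 0.243 and 0.316 CPM, and at most 2 in neg.

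None of 14 tested receptor and coreceptor genes passed, with a median of -0.47. TGFBR1, the type I TGF-beta receptor gene, had 13.4 and 6.75 CPM in pos, against 18.2, 19.6 and 21.6 CPM in neg (log2 fold change -0.97, SE 0.33, adjusted p = 0.104). ACVR1, a type I receptor gene of the BMP arm, had 9.71 and 7.06 CPM in pos, against 14.7, 13.3 and 13.7 CPM in neg (-0.72, SE 0.24, adjusted p = 0.0959). Neither overlapped between groups. BMPR1A and BMPR2, which pair as a BMP receptor, overlapped between groups, and their log2 fold changes of -0.50 and -0.74 turned to 0.02 and 0.04 with the length trend removed. BAMBI, a decoy receptor that BMP signalling induces, had 193 and 309 CPM in pos, against 144, 134 and 117 CPM in neg, with no overlap (log2 fold change 0.93, SE 0.26, adjusted p = 0.0675 in edgeR and 0.0176 in DESeq2). Its log2 ratios over neg were 0.55 and 1.24, in the group of shortest transcripts with medians of 0.37 and 1.19. Removing the length trend gave 0.41 for BAMBI (adjusted p = 0.0765 in edgeR).

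None of the other 5 SMAD genes passed, and SMAD4, the partner of all receptor SMADs, was scarce in both groups. It had 7 and 11 reads in pos, against 16, 29 and 29 in neg, or 0.0984 ± 0.0478 CPM per kb in pos and 0.200 ± 0.0694 in neg, where SMAD3 had 12.5 ± 4.50 in pos and 14.5 ± 0.438 in neg. SMAD1, a receptor SMAD of the BMP arm, had 38.3 and 20.4 CPM in pos, against 20.6, 19.9 and 20.8 CPM in neg (log2 fold change 0.52, SE 0.30, adjusted p = 0.253). SMAD5, of the same arm, had 21.3 and 5.69 CPM in pos, against 28.7, 27.3 and 37.6 CPM in neg (-1.20, SE 0.54, adjusted p = 0.173). Its log2 fold change was -0.58 leaving out pos replicate 3 and -2.40 leaving out pos replicate 1. SMAD2 was at -0.57 (SE 0.28, adjusted p = 0.205), with a sign that turned when the length trend was removed (0.71, adjusted p = 0.126), for a canonical transcript of 34626 nt.

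Genes that SMAD3 and SMAD4 are known to induce contained most of the falls. Of 19 tested, 6 fell and none rose, against 4.13% of all tested genes lower in pos, and the list's median was -0.82. The cell cycle inhibitor gene CDKN1A had 3.88 and 5.80 CPM in pos, against 19.7, 19.1 and 18.6 CPM in neg (log2 fold change -1.98, SE 0.26, adjusted p = 0.0326). SNAI2, a transcription factor of epithelial-mesenchymal transition that the list of BMP targets also holds, had 1.46 and 2.43 CPM in pos, against 9.23, 6.60 and 7.64 CPM in neg (-2.02, SE 0.35, adjusted p = 0.0381). Both lay well below neg in each pos library. PMEPA1, which encodes a feedback inhibitor of TGF-beta signalling, had 34.9 and 45.3 CPM in pos, against 101.5, 97.4 and 100.6 CPM in neg (-1.32, SE 0.21, adjusted p = 0.0348). The circadian repressor gene BHLHE40 also fell, with 62.5 and 56.0 CPM in pos, against 135.0, 124.0 and 135.2 CPM in neg (-1.15, SE 0.19, adjusted p = 0.0364). The calls of these 4 genes ended when any 1 neg library was left out, as all calls did, with adjusted p values of 0.178 to 0.217.

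COL1A1, a collagen gene of the same target list, had 6.39 and 6.22 CPM in pos, against 15.9, 16.3 and 16.4 CPM in neg (log2 fold change -1.36, SE 0.21, adjusted p = 0.0340). It is also 1 of 11 fibroblast markers, whose summed level was 18.03 to 21.3 CPM in pos and 33.8 to 36.7 CPM in neg, with COL1A2, COL3A1, POSTN and FAP at 0 reads in all 5 libraries. COL6A3, another of them, had 0 reads in both pos libraries, against 73, 68 and 73 in neg. LUM, on the same list, went the other way without passing (log2 fold change 0.71, adjusted p = 0.217). It had 6.47 and 4.64 CPM in pos, against 2.38, 4.59 and 3.22 CPM in neg. The part of these markers in the COL1A1 result was not tested. Of 10 leukocyte markers, 5 were at 0 in all 5 libraries, PTPRC among them, and the summed level was 47.7 to 63.05 CPM in pos and 51.5 to 61.7 CPM in neg. CD68 carried most of it, at 443 to 759 reads in every library, and LYZ rose, with 145 and 133 reads in pos, against 74, 94 and 61 in neg (log2 fold change 1.27, adjusted p = 0.0386). CSF1R went the other way without passing, with 0 and 5 reads in pos, against 33, 33 and 26 in neg (-3.13, adjusted p = 0.0737). With the length trend removed, COL1A1 (-0.78, adjusted p = 0.0879), PMEPA1 (-0.82, adjusted p = 0.0988) and SKI (-0.41, adjusted p = 0.177) no longer passed. SKI, a corepressor of SMAD complexes, had 33.9 and 27.3 CPM in pos, against 56.3, 58.7 and 70.0 CPM in neg (-1.01, SE 0.22, adjusted p = 0.0457). SKI and PMEPA1 were the 2 falls among 22 tested intracellular regulators. The matricellular gene CTGF, another SMAD3 target, had higher levels in pos, with 14.5 and 16.3 CPM, against 7.90, 9.24 and 10.7 CPM in neg, and did not pass (0.73, SE 0.23, adjusted p = 0.0866).

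**Figure D4:**
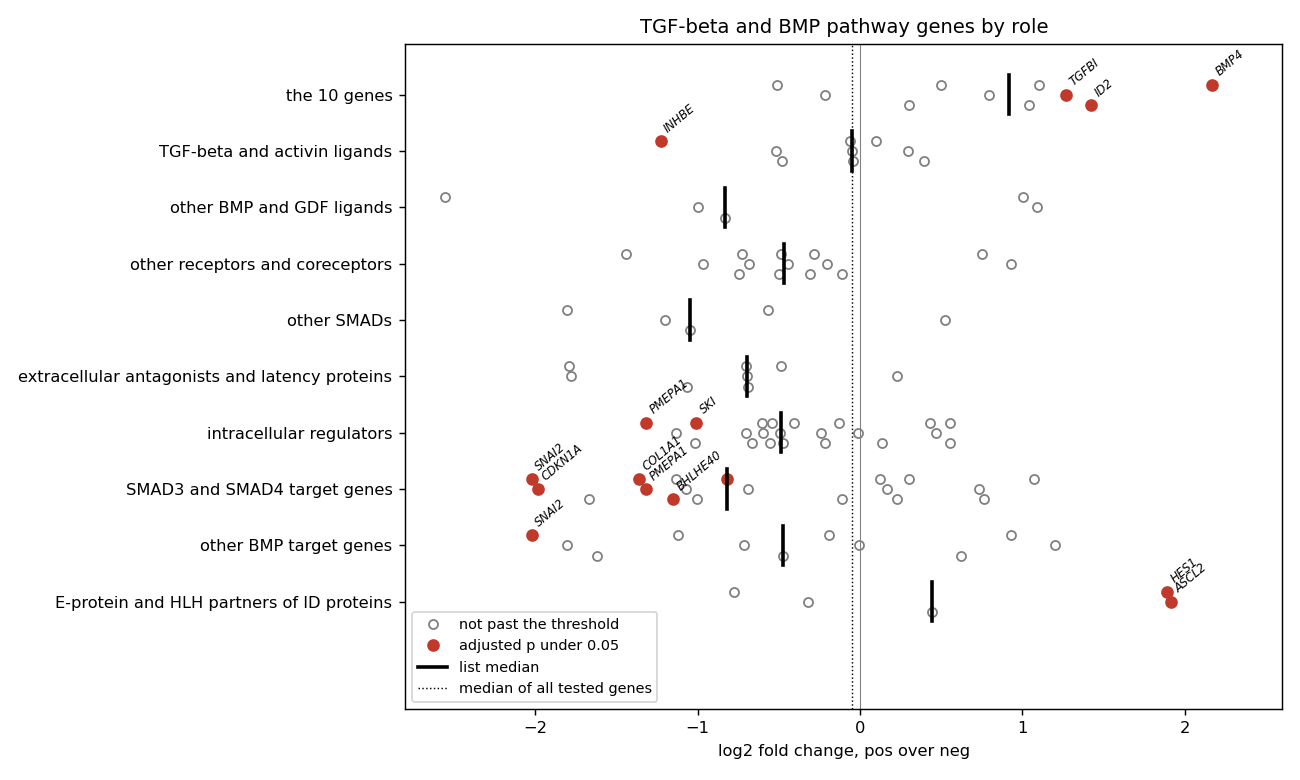
Log2 fold change of pos over neg for every tested gene of the 10 and of the further pathway lists, by role, with filled red points past the threshold, all but 1 of them named, and open points not, and black bars for list medians. Vertical offsets within a row only separate points, and genes on 2 lists appear on both. The median of the 10 genes lies at 0.92 and that of the SMAD3 and SMAD4 targets at -0.82, on either side of the dotted line at -0.05 for all tested genes.

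No BMP target gene beyond the 10 passed the threshold as higher, and SNAI2 was the 1 of 11 tested that fell. That is 9.09% of them, near the 9.20% of all tested genes, and the list's median log2 fold change was -0.48. Of those that did not pass, some, BAMBI among them, lay above every neg library, and others lay below. The proteins that ID factors bind or antagonise are basic helix-loop-helix factors. The list used here is broader and takes in E proteins and other helix-loop-helix factors. Of 5 genes tested on it, the Wnt-dependent stem cell factor gene ASCL2 (log2 fold change 1.91, SE 0.42, adjusted p = 0.0457) and the Notch target gene HES1 (1.89, SE 0.43, adjusted p = 0.0490) rose. ASCL2 had 112 and 279 CPM in pos, against 57.1, 59.3 and 39.1 CPM in neg, and HES1 had 50.7 and 146 CPM in pos, against 27.3, 27.1 and 25.1 CPM in neg. Both were highest in pos replicate 3, and neither passed in limma-voom (adjusted p = 0.0568 for ASCL2 and 0.0660 for HES1). Both are in the group of shortest transcripts, of which 15.2% were called higher, with median log2 ratios of 0.37 and 1.19. Their own ratios in pos replicates 1 and 3 were 1.13 and 2.45 for ASCL2 and 0.935 and 2.46 for HES1. Leaving out pos replicate 3 gave log2 fold changes of 1.08 for ASCL2 and 0.91 for HES1. The HES1 call also ended with DESeq2 size factors (adjusted p = 0.0509) and with a filter of 5 CPM (adjusted p = 0.0515), and both calls ended when scaled by library size alone (adjusted p = 0.0606 for ASCL2 and 0.0643 for HES1). The E-protein genes TCF3 (-0.32, SE 0.19, adjusted p = 0.274, turning to 0.12 once the length trend was taken out) and TCF12 (-0.77, SE 0.48, adjusted p = 0.285) did not pass. TCF12 had 129 and 39.3 CPM in pos, against 137, 145 and 150 CPM in neg, and TCF4 had too few reads to be tested.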

How the data were processed

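Messenger RNA of 5 SW620 libraries was sequenced after TruSeq Stranded mRNA preparation, per the labels' protocols. The authors deposited raw counts per gene symbol, made after alignment with STAR, as the labels' protocols state. CASAVA 1.8.2, STAR 2.5.2b and DESeq2 1.24.0 are named in the submitters' processing notes. The build is given as hg19 in those notes and as GRCh38 in the labels' protocols, so positions come from GENCODE 44 alone. Neither the counter nor its handling of strand is given in the sources used here. Of 25435 rows, 92 spike-in rows at 0 were left out.

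The tests ran in R 4.3.3, on the deposited counts, using edgeR 4.0.16 (filterByExpr with a minimum count of 10 and a minimum total of 15, TMM, glmQLFit, glmQLFTest, two-sided) and limma 3.58.1. Each SE was derived as log2 fold change over the root of F, and CPM is TMM-normalised. Log2 CPM used a prior count of 2. Totals of 10888704 to 14137678 counts put 3 counts at 0.189 to 0.316 CPM. No pair of libraries agreed within sampling noise (chi-square per degree of freedom 152 for pos, 6.02 to 22.4 for neg). Alternatives were limma-voom, DESeq2 1.42.0, its size factors used in edgeR, library size only, no filter, 5 CPM in 2 libraries, a replicate block, each library left out, and removal of each library's lowess trend (span 0.3) of log2 CPM on canonical transcript length, known for 97.5% of tested genes. The edgeR step was tested on simulated data.

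The 10 genes, the pathway lists and the alternatives were chosen with earlier results of these data known. Named were the 10 genes, up to 4 called genes per list by smallest p, 17 fixed pathway genes whatever their p, MUC1, and the 5 genes nearest to ID1. Of the pathway genes under this rule, 1 is not reported here. Cell type markers given by name were chosen after their values were seen.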

Additional observations from a re-analysis of the deposited data

How the results depend on the processing

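BMP4 kept its direction in all 15 alternatives, as did TGFBI, ID2, ID3, BMP7 and SMAD7 wherever they were tested. For all tested genes, the 10 genes and the 92 further pathway genes, the counts past the threshold were 1251, 3 and 10. DESeq2 gave 3161 and 4 calls, and 20 for the pathway genes. Library size only gave 606 and 1. The length trend removed gave 1899, 4 and 17. Length removal without pos replicate 1 gave 7223, 8 and 48, and without pos replicate 3 it gave 4997, 5 and 39. Leaving out single libraries gave 0 to 8819, 0 to 10 and 0 to 66. The high ends come from a lone pos library assumed to vary like neg (8819 calls without pos replicate 1 and 4386 without pos replicate 3). Without neg replicates 1, 2 and 3 edgeR called 0 genes, with 3033, 2510 and 2607 at an unadjusted p under 0.05.

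The replicate block gave 87, 0 and 0 calls, with 1669 genes, 2 of the 10 and 10 of the pathway genes at an unadjusted p under 0.05. Same-numbered libraries deviated in opposite directions (r = -0.44 and -0.45 across genes). With 2 pos libraries, their deviations from the pos mean mirror each other. These signs therefore cannot show whether same-numbered libraries share a culture or batch.

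Signs turned as follows, and the cause was not tested. With length removed, alone and then without pos replicates 1 and 3, ID1 was at -0.19, -0.12 and -0.23, SMAD3 at 0.37, 0.43 and 0.32, and SMAD2 at 0.71, 1.03 and 0.33. With length removed alone and without pos replicate 3, BMPR1A was at 0.0245 and 0.18 and BMPR2 at 0.041 and 0.19. TCF3 was at 0.12 with length removed and 0.43 without pos replicate 1 as well. Length removal without pos replicate 3 gave 0.046 for TGFBR2 and 0.034 for TCF12, and without pos replicate 1 it gave 0.78 for SMAD4 and 0.24 for TGFB1. Leaving out single libraries, SMAD3 ranged from -0.59 to 0.086, SMAD6 from -0.0056 to 0.58 and TGFB1 from -0.53 to 0.35, and SMAD6 was at -0.12 with library size only. With 2 pos libraries, small differences were not detectable.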
